A study of Homo sapiens with 3 samples.

Results

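Processed pseudogenes are copies of spliced messenger RNA that were reverse transcribed and inserted into the genome. They were chosen here as genes of the GENCODE type processed_pseudogene or transcribed_processed_pseudogene with at least 200 reads in each of 3 libraries of C4-2 cells. The rule found 77 genes, out of 10610 processed pseudogenes and 58302 genes of all types in the count tables. Of these 77, 51 were annotated as processed and 26 as transcribed processed pseudogenes. They were thus selected on their own read counts, and their levels are given as a description, with no test.

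C4-2 is a prostate adenocarcinoma line derived from LNCaP, and the labels give the 3 libraries as wild-type cells with no treatment. RNA was depleted of ribosomal RNA before sequencing, and the series was designed around neuroendocrine prostate cells and depletion of neuropilin-2, whose samples were not analysed here. The 3 libraries form 1 group, and the labels do not say whether they came from separate cultures, so the spread between them may be technical. They held 51200272, 47513470 and 49965601 assigned reads in replicates 1, 2 and 3. Levels are given in TPM, transcript abundance from counts divided by exon length and scaled to the same sum in each library. The luminal prostate marker KLK3 averaged 1440 ± 26.3 TPM (SD, n = 3), while of 6 markers of other cells CD3E, COL1A2 and KRT5 had 0 reads in all 3. PTPRC had 0, 2 and 0 reads, PECAM1 6, 4 and 2 reads, and VIM 566, 600 and 581 reads, or 6.94 TPM.

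The enzymes of LINE-1 elements make such copies by taking a messenger RNA as template, so a typical processed pseudogene has no introns, lacks the promoter of its parent gene and ends in a tract of A bases. Parents are mostly genes with abundant messenger RNA, above all ribosomal protein genes. A copy can be transcribed from a promoter near its insertion site, inside another gene's transcript, or not at all. Because a young copy is nearly identical to its parent, short reads from the parent can also match the copy.

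In each of 5 stretches of 75 bases a pseudogene is set against the coding sequence of its parent, 5′ to 3′, with the bases that differ in capitals. Each stretch is the one with the most differing bases among gap-free stretches inside the parent's coding sequence. They were therefore not chosen as typical. PTMAP4, at chr12:9240182-9240256 on the minus strand of GRCh38, belongs to the parent with most members and differed from PTMA at 4 bases. DND1P1, at chr17:45586257-45586331 on the plus strand, differed from DND1 at 6 bases and is shown because its parent had 0 reads. HMGN2P5, at chr15:29730713-29730787 on the plus strand, and EEF1A1P5, at chr9:133019705-133019779 on the plus strand, each differed from the parent at 1 base. KRT8P46, at chr4:102729971-102730045 on the minus strand, is shown as a more diverged copy, with 17 bases that differed from KRT8. Over the whole alignment identity to the parent was 92.8% for PTMAP4, 96.6% for DND1P1, 99.6% for HMGN2P5, 99.7% for EEF1A1P5 and 90.1% for KRT8P46, so single stretches can lie off it.
PTMAP4: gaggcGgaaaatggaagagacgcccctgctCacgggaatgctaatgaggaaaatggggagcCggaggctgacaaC
PTMA: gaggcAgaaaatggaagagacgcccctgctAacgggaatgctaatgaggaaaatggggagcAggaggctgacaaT
DND1P1: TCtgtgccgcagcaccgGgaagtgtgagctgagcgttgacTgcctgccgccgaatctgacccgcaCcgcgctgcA
DND1: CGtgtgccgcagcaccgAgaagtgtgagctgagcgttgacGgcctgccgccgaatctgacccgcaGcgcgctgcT
HMGN2P5: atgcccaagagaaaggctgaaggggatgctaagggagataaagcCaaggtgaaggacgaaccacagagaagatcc
HMGN2: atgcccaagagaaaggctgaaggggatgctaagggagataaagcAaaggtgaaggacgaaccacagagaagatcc
EEF1A1P5: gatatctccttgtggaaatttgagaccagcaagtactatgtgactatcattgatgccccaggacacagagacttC
EEF1A1: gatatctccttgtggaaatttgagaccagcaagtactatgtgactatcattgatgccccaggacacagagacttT
KRT8P46: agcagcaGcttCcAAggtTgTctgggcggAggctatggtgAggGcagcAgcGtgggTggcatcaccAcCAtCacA
KRT8: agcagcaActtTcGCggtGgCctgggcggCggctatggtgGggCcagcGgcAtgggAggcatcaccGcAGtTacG

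Together the 77 pseudogenes held 0.126 ± 0.00415% of assigned reads (SD, n = 3), and all processed pseudogenes held 0.283 ± 0.00653%. The 77 took 44.4% of the reads of all processed pseudogenes. Mean TPM ran from 2.47 to 997 with a median of 19.7. At least 100 TPM was reached by 9 of them, 51 lay between 10 and 100 TPM, and 17 lay under 10 TPM. Just inside the threshold lay KRT8P46 with 266, 202 and 264 reads, and just outside it ENSG00000234750 with 199, 204 and 219 reads.

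A single gene stood far above the rest. RPS2P5, a copy of the small-subunit ribosomal protein gene RPS2 at chr12:118246084-118246962, had 14470, 15027 and 13224 reads in replicates 1, 2 and 3, or 980.5, 1110.0 and 901 TPM. It held 22.9% of the reads of the 77 pseudogenes. PPIAP22, a copy of the cyclophilin A gene PPIA, had 274, 288 and 260.1 TPM. The ranges of RPS2P5 and PPIAP22 did not overlap.

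RPL41P1, a copy of the gene for the very short ribosomal protein RPL41, had 249, 257 and 254 TPM. ENSG00000279483 had 198, 203 and 177 TPM, and its 75 exon bases aligned to RPL41 over their whole length with no mismatch. These were the 2 members with under 100 exon bases, and short exons raise TPM per read: they rested on 338, 320 and 344 reads and on 249, 235 and 222 reads. ENSG00000237550, whose closest coding gene is the large-subunit gene RPL9, had 177, 228 and 158 TPM. The third library was lowest and the second highest for ENSG00000237550, as for RPS2P5.

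HMGN2P5, a copy of a nucleosome-binding protein gene, had 168, 136 and 158 TPM. H3P6, whose exon sequence is identical to part of the histone H3.3 gene H3-3A, had 143, 178 and 116 TPM. PTMAP4, a copy of the prothymosin alpha gene PTMA, had 119, 123 and 129.6 TPM. Reads over 2 genes were dropped, and 95.1% of PTMAP4's exon bases are shared with the non-coding gene LINC00987, so its level rests on the few bases outside the overlap. ENSG00000232599 on chromosome X had 99.8, 117 and 109 TPM and no match to a coding transcript. PTMAP2, a further PTMA copy, closed the 10 highest with 92.2, 96.1 and 87.6 TPM.

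**Figure D1:**
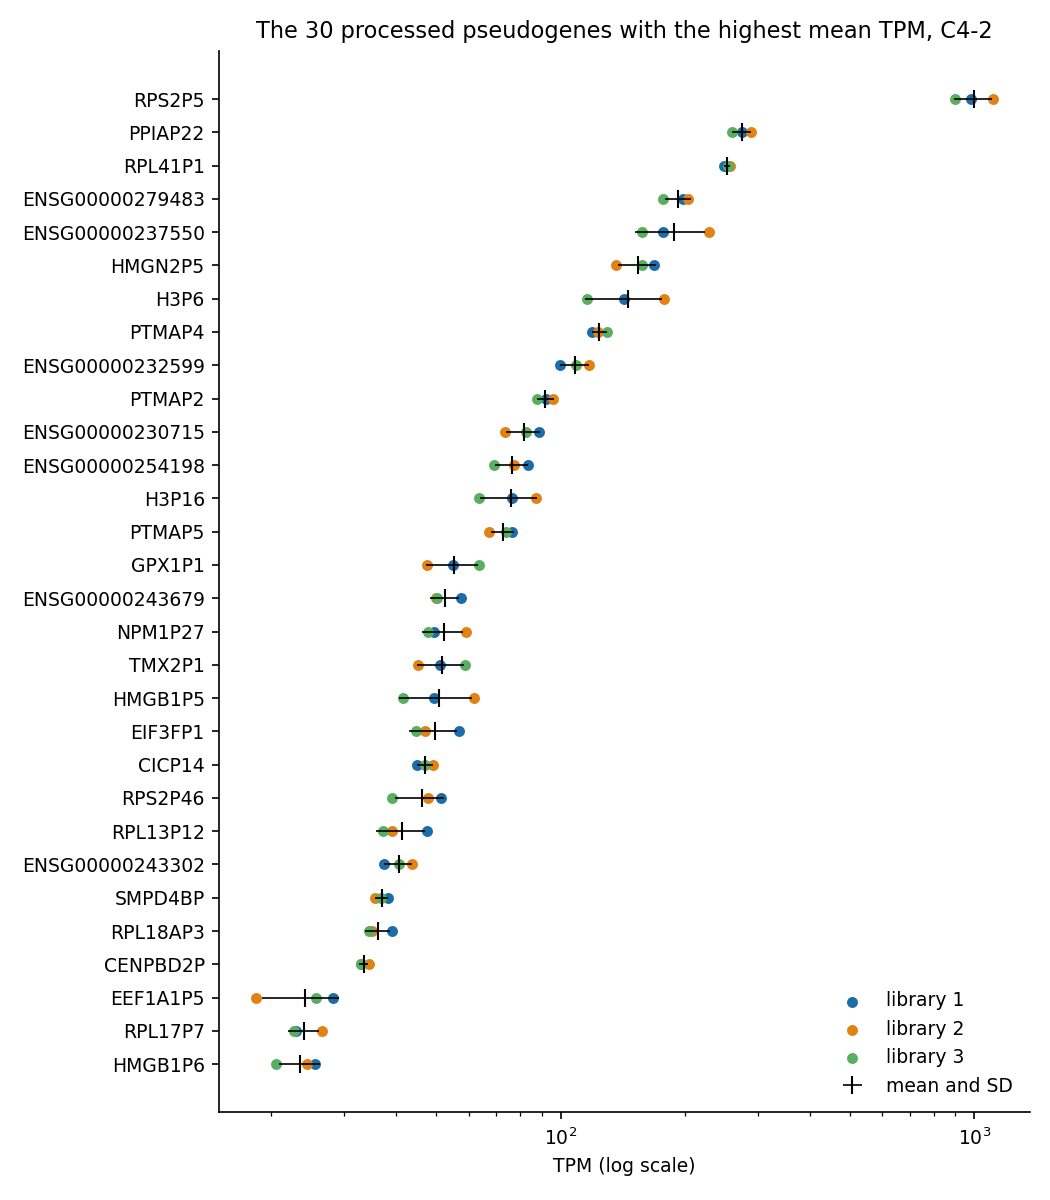
TPM on a log axis of the 30 processed pseudogenes with the highest mean, 1 row each, with a point per library and the mean with its SD over the 3 libraries. RPS2P5, at 901 to 1110.0 TPM, lies apart from the next gene, PPIAP22, at 260.1 to 288 TPM.

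A parent gene could be named by symbol for 52 of the 77, with 45 distinct parents; 25 had none, 17 of which carry an identifier in place of a name. For 50 of the 52 the closest coding gene in a sequence search was that same parent, and BUD13P1 and SSR4P1 gave no alignment. Most pseudogenes lay below the parent. The median difference in log2(TPM + 0.1), pseudogene minus parent, was -2.77, -2.70 and -2.65 in replicates 1, 2 and 3, which is 6.52-fold lower over the 3 libraries. The scale understates differences from parents near 0.

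In 42 pairs the pseudogene lay below its parent in all 3 libraries, in 10 it lay above in all 3, and in 0 pairs did the sign change between libraries. The difference exceeded 2 SD of the libraries in 51 pairs, the exception being EIF3FP1 at 81.0% of its parent, the translation initiation factor gene EIF3F. That near equality depends on length scaling: the log2 difference of EIF3FP1 was -0.31 in TPM, but -3.85 with counts scaled by library size alone. In 34 pairs the pseudogene reached over 10% of the parent's TPM and in 3 it stayed under 1%. Across the 52 pairs the levels of pseudogene and parent on this log scale had a Pearson correlation of 0.53 and a Spearman correlation of 0.52, a description over points that share libraries, length scaling and matching reads. Without genes that share exon bases with another gene, 20 pairs were left, with a median difference of -1.59. Counted per unique window of 75 bases the median over 50 pairs was -2.12.

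The widest gaps were copies of genes with very abundant RNA. This follows in part from the rule: each copy has at least 200 reads per library, so only an abundant parent can lie so far above it. TPI1P2, a copy of the glycolytic triosephosphate isomerase gene TPI1, had 8.50, 8.02 and 9.09 TPM against 1419, 1409 and 1425 TPM of TPI1, a log2 difference of -7.36 ± 0.0809 (SD, n = 3). The alignment to TPI1 covers 61.1% of the exon bases of TPI1P2. RPLP0P6, a copy of the ribosomal stalk protein gene RPLP0, had 14.3 ± 0.657 TPM against 1465 TPM, a difference of -6.67 ± 0.103, and of -6.05 per unique window. EEF1A1P5, from the elongation factor gene EEF1A1, had 28.2, 18.4 and 25.6 TPM against 2481, 2487 and 2312 TPM, a difference of -6.67 ± 0.348. Of its windows 17.8% are unique, and per unique window the difference was -4.54. Its second library was the lowest, although the EEF1A1 value of that library was the highest of the 3.

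RPL13AP5, a copy of the large-subunit ribosomal protein gene RPL13A, had 23.0 ± 1.71 TPM, against 2225 TPM of its parent, a difference of -6.59 ± 0.115, and of -5.17 per unique window. RPS2P46, a second copy of RPS2, had 51.4, 47.8 and 39.2 TPM against 2506, 2317 and 2486 TPM, a difference of -5.73 ± 0.221, and of -5.13 per unique window. Of the exon bases of RPS2 25.6% are shared with another gene, and reads over 2 genes were dropped. RPSAP47, a copy of the ribosomal and laminin-binding protein gene RPSA, differed by -5.39 ± 0.0405. In none of these 6 pairs did the ranges of copy and parent overlap, which follows from their choice as the lowest differences.

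Among the 10 highest levels 6 had a parent by symbol. RPL41P1, PTMAP4 and PTMAP2 lay below theirs by -2.64, -3.02 and -3.45, at about the median difference or beyond it. The other 3 had narrower gaps. RPS2P5 reached 40.9% of RPS2, with a log2 difference of -1.29 ± 0.208 (SD, n = 3). Of the 75-base windows of RPS2P5 36.4% are unique in the genome and in spliced coding transcripts, and per unique window the difference was -0.05. PPIAP22 reached 43.7% of PPIA, with a difference of -1.19 ± 0.0199, and of -4.34 in CPM, counts scaled by library size alone; 17.7% of its windows are unique, and per unique window the sign turned, to 1.21. HMGN2P5 reached 58.6% of HMGN2, with a difference of -0.77 ± 0.263, and of -3.96 in CPM, and none of its windows is unique. The median in CPM was -4.37. Read length is not given in the sources used here, so which of these windows a read could tell apart was not tested.

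**Figure D2:**
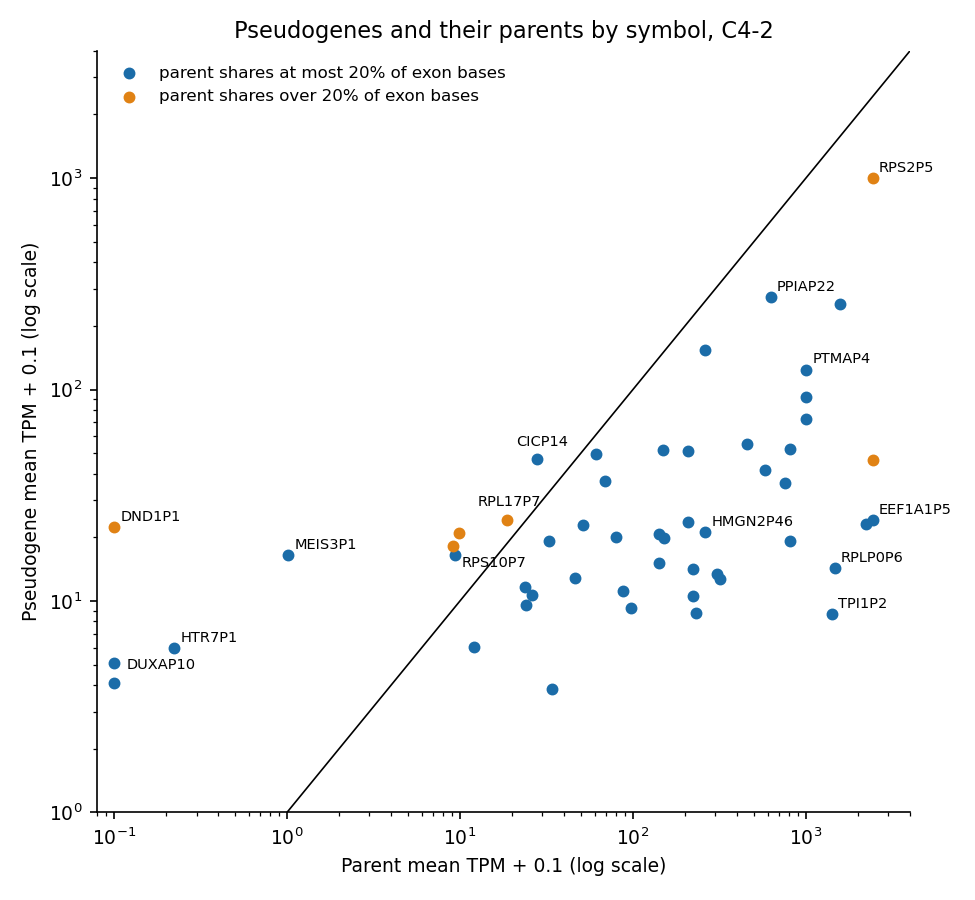
Mean TPM + 0.1 of 52 processed pseudogenes against that of the parent gene, both on log axes, with the line of equality. Points above the line are the 10 pseudogenes over their parent. Orange marks parents with over 20% of exon bases inside another gene. Of the 5 such parents 4 belong to those 10, and the other is RPS2.

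Among the 10 pseudogenes above their parent, a few parents were silent or hardly counted. DND1P1, a copy of a germ cell RNA-binding protein gene, had 22.2, 24.4 and 20.2 TPM, against 0 reads of DND1 in every library. All of DND1's exon bases (100%) are shared with WDR55, so with reads over 2 genes dropped DND1 could not be counted and no fold is given. DUXAP9 and DUXAP10 are copies of DUXA, a double homeobox gene of early embryos, which had 0 reads in every library with 0% of its exon bases shared. DUXAP9 had 3.76, 4.18 and 4.03 TPM and DUXAP10 5.19, 6.003 and 3.76 TPM. Against a floor of 3 reads of DUXA per library, DUXAP9 was at least 21.1-fold and DUXAP10 at least 21.0-fold higher. The alignment to DUXA covers 24.4% of the exon bases of DUXAP9 and 11.5% of those of DUXAP10. With these pairs at their bounds the median difference over the 52 stayed at -2.70, but pairs that remain above their parent cannot move it.

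HTR7P1, a copy of the serotonin receptor gene HTR7, had 478, 411 and 376 reads, against 0, 14 and 4 reads of HTR7. Per base it was 49.9 times as high, with a 95% exact interval of 31.4 to 84.4 that covers counting error only. Replicate 2 gave 14 of the 18 HTR7 reads, and without it the ratio was 152, with an interval of 59.0 to 557; without replicate 1 it was 31.0. MEIS3P1, a copy of the homeobox gene MEIS3, had 16.04, 15.1 and 17.9 TPM against 1.12, 0.71 and 0.91 TPM, a log2 difference of 4.04 ± 0.270 (SD, n = 3). The libraries of copy and parent did not overlap for either gene. Of the windows of MEIS3P1 66.3% are unique and of those of HTR7P1 99.8%, against 2.66% for DUXAP9 and 14.0% for DUXAP10.

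For 3 others the parent shares exon bases with a neighbouring gene, which removes reads from the parent. NDUFV2P1, a copy of a gene for a subunit of respiratory complex I, had 20.1, 20.9 and 21.7 TPM against 9.23, 10.6 and 9.43 TPM. NDUFV2 shares 28.4% of its exon bases, and in CPM the sign turned, to -0.47. RPS10P7 had 18.02 ± 1.21 TPM, against 9.04 ± 1.36 TPM of RPS10, which shares 44.6% with the read-through gene RPS10-NUDT3. The alignment to RPS10 covers 24.9% of the exon bases of RPS10P7. RPL17P7 had 24.0 ± 2.10 TPM, against 18.5 ± 0.483 TPM of RPL17, which shares 35.3% with RPL17-C18orf32.

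CICP14 had 47.0 ± 2.10 TPM, against 27.7 ± 1.02 TPM of CIC, a transcriptional repressor gene, and C10orf88B had 16.4 ± 3.22 TPM against 9.25 ± 0.508 TPM of C10orf88. RPS10P7, RPL17P7, CICP14 and C10orf88B were singled out after their values were seen. By counts without length scaling 6 of the 52 lay above their parent, since NDUFV2P1, RPL17P7, CICP14 and C10orf88B then lay below it. RPL17P7 had 214, 226 and 210 reads, against 783, 711 and 741 reads of RPL17.

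Among those without a parent by symbol, 7 aligned to a coding gene at 80% identity or more over at least 80% of their exon bases. ENSG00000279483 lay below RPL41 by a log2 difference of -3.04 ± 0.0615 and ENSG00000237550 below RPL9 by -0.67 ± 0.218. H3P6 and H3P16 lay below H3-3A by -0.46 ± 0.294 and -1.39 ± 0.219. ENSG00000235859, a copy of the proteasome ATPase gene PSMC5, lay below it by -2.80 ± 0.0357, and ZNF37BP differed from the zinc finger gene ZNF37A by -0.01 ± 0.112, less than the spread between libraries. ENSG00000283041 had 10.9 ± 1.26 TPM against 0 reads of the elongation factor gene EEF1G, whose exon bases are 99.9% shared with another gene.

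By function of the parent, copies of ribosomal protein genes were the largest listed group in the files. The rule took 0.726% of all 10610 processed pseudogenes, and the share of each group is to be read beside that. Groups follow the parent's symbol. All 4263 pseudogenes without a parent by symbol, 25 of them members, are in no group. Among those members are ENSG00000279483, ENSG00000237550, H3P6, H3P16 and ENSG00000283041. Of 1595 pseudogenes of cytosolic ribosomal proteins 10 passed 200 reads, or 0.627%, with a median of 30.1 TPM and a median difference of -4.10. RPL17P7 and RPS10P7 were the 2 above their parent in TPM. Of 278 copies of chromatin and HMG protein genes 8 passed, or 2.88%, with a median of 62.3 TPM. All 8 lay below their parent, by -3.96 (NPM1P27) to -0.77 (HMGN2P5). NPM1 encodes the nucleolar protein nucleophosmin, and NPM1P27 had 52.1 ± 5.99 TPM.

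Translation factors gave 3 of 199 pseudogenes (1.51%), EIF3FP1, EIF4BP3 and EEF1A1P5. Metabolic genes gave 3 of 411 (0.730%), NDUFV2P1, TPI1P2 and UQCRFS1P1, a copy of the gene for the iron-sulfur subunit of respiratory complex III. Cytoskeletal genes gave 3 of 272 (1.10%), the keratin 8 copies KRT8P12 and KRT8P46 and the tropomyosin copy TPM3P9. KRT8, a keratin of luminal epithelium, had 221 ± 3.89 TPM, and KRT8P12 lay below it by -3.96 ± 0.0536. None named after genes for RNA binding and splicing (0 of 263) or cell cycle and replication (0 of 81) passed the rule. The same held for ubiquitin, SUMO and proteasome (0 of 153). In groups so small a share of 0.726% leaves few genes. The PSMC5 copy ENSG00000235859 passed the rule, but has no parent by symbol and is in none of these groups.

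PTMA had the most members, 3 of its 12 pseudogenes. Prothymosin alpha is a small acidic nuclear protein, and PTMA had 1008, 1020 and 991 TPM. PTMAP4 differed from it by -3.02 ± 0.0760, PTMAP2 by -3.45 ± 0.0466 and PTMAP5, with 76.3, 67.3 and 73.7 TPM, by -3.80 ± 0.108. The 3 held 94.3% of the reads of the family. The next copy, PTMAP9, had 13.9 ± 2.36 TPM from 90, 59 and 74 reads, and PTMAP10, PTMAP15 and PTMAP6 had 0 reads in all 3 libraries.

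In families of over 20 pseudogenes that have a member, the share of reads held by members ran from 33.8% (RPL17) to 98.1% (RPS2). Families without a member are left out of this range. RPS2P5 and RPS2P46 held 98.1% of the reads of 25 RPS2 pseudogenes, and PPIAP22 alone held 79.5% of those of 89 PPIA pseudogenes, 53 of which had 0 reads. Among 45 copies of EEF1A1, EEF1A1P5 held 47.6%. HMGB1P5, a copy of the gene for the chromatin protein and alarmin HMGB1, had 49.3, 61.8 and 41.6 TPM against 207, 226 and 190.4 TPM of HMGB1, a log2 difference of -2.04 ± 0.161. With HMGB1P6, at 23.5 ± 2.65 TPM, it held 68.7% of the reads of 46 HMGB1 pseudogenes. All these shares follow in part from the rule, which takes the copies with most reads.

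HMGN2P46, named after its values were seen, is known in prostate cancer as C15orf21, a fusion partner of the ETS factor gene ETV1. It had 1091, 1074 and 1025 reads and 21.1 ± 1.35 TPM, and lay below HMGN2 by -3.63 ± 0.0380. It aligned to HMGN2 over 37.6% of its exon bases. Its gene model spans chr15:45511136-45586290 with 12 exon blocks, and 98.1% of its windows are unique.

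Not every model had the form of a processed copy. A single exon block made up 56 of the 77, and 21 had several, 10 of these with 5 or more. GTF2IP4 had 24 blocks, SMPD4BP 19, and DUXAP10 and HMGN2P46 12 each. SMPD4BP, a copy of the sphingomyelinase gene SMPD4, reached 53.4% of its parent, and GTF2IP4, a copy of the transcription factor gene GTF2I, 40.7%; 5.48% of the windows of GTF2IP4 are unique, and per unique window it lay above GTF2I, by 1.10. Over the 39 pairs with 1 block the median difference was -2.97, and 5 of those lay above the parent. Multi-block models made up 27.3% of the 77 and 14.1% of the other 10533 processed pseudogenes.

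The expressed copies were set beside those 10533 in further properties, without a test. The transcribed type, 1 of the 2 types the rule names, made up 33.8% of the 77 and 4.51% of the others, and the median exon length was 1314 and 540.0 bases; longer genes collect more reads. Identity to the closest coding transcript had a median of 96.5% over 68 with a match, and of 87.7% over 9806 others. At least 95% identity was found in 52.9% and in 12.3%.

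High identity went with few unique windows. A median of 75.9% of the 75-base windows of a member was unique, and 100% in the others. All windows were unique in 19.5% of the 77 and in 72.0% of the others, and fewer than 50% in 29.9% and 6.57%. Among the 10 highest levels 7 had fewer than 50% unique windows, and the 23 such members had a median of 36.1 TPM, against 16.4 TPM in the other 54. RPL41P1, with only 7 windows, ENSG00000279483, with only 1, HMGN2P5 and H3P6 had 0%. In the genome alone, without spliced transcripts, 25.6% of the windows of HMGN2P5 and 4.15% of those of H3P6 were unique. H3P6 held 985, 1124 and 796 reads. Over 50 pairs with an alignment, Spearman's correlation of identity with the unique share was -0.69, with the parent's level 0.47 and with the difference to the parent -0.22, as descriptions over genes that share libraries.

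**Figure D3:**
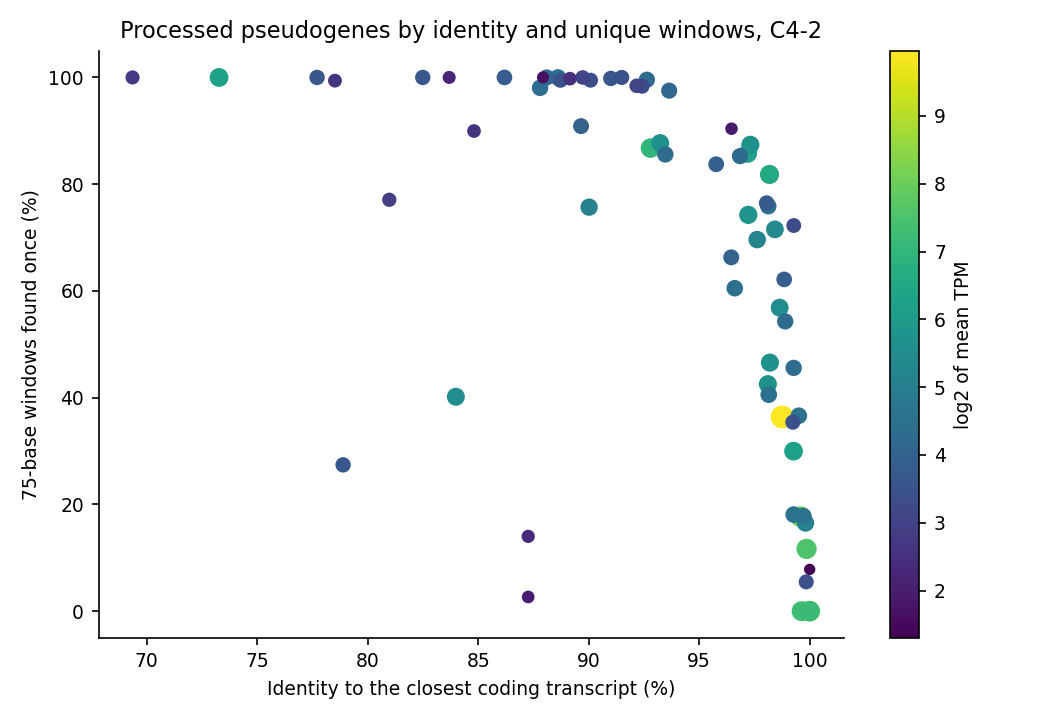
Share of 75-base windows that are unique in the genome and in spliced coding transcripts, against identity to the closest coding transcript, both in percent, for 68 processed pseudogenes; larger and lighter points have higher mean TPM (log2 on the colour bar). The largest point is RPS2P5 at 98.7% identity and 36.4% unique windows, and the points at 0% include H3P6 at 145 TPM.

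Open reading frames were compared by length. The longest frame from an ATG had exactly as many codons as the reference coding sequence in 14 of 70 members (20%) and in 2.43% of 9954 others. Among them were PPIAP22 (165 codons), HMGN2P5 (90 codons), H3P6 and H3P16 (136 codons each), PTMAP5 (110 codons), EEF1A1P5 (462 codons), RPL13AP5 (203 codons) and RPLP0P6 (317 codons). The longest frame had 70 codons in RPS2P5, against 293 in RPS2, and 31 in NDUFV2P1, against 249 in NDUFV2. Equal length does not show that a frame is translated.

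A tract of at least 15 A within 20 bases, searched from 10 bases before to 100 bases past the annotated end, was found in 16 of the 77 (20.8%) and in 12.02% of the others. Those with 20 A in a row included RPL13AP5, RPL13P12, ENSG00000235859 and ENSG00000283041. The tracts of 2 copies are printed 5′ to 3′ on the plus strand of GRCh38, with the window of 20 bases in capitals, since such a tract is the trace of the poly(A) tail of the copied RNA. That of RPL13AP5 lies at chr10:96750914-96750943 and that of RPS2P5, with 16 A, at chr12:118246993-118247022.
RPL13AP5: gttaattcctAAAAAAAAAAAAAAAAAAAA
RPS2P5: attaagcgtgAAAAAAAAATTATAAAAGAA

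The 77 lay on 22 chromosomes, with the highest number, 10, on chromosome 7. All processed pseudogenes were not counted by chromosome, so no excess on chromosome 7 can be read from this. A run of 4 lay within chr7:128651185-128658791, ENSG00000243302, ENSG00000230715, ENSG00000243679 and CICP14, at 40.6, 81.6, 52.6 and 47.0 TPM. Inside the span of a protein-coding gene lay 22 of them (28.6%), against 32.0% of the others. Of these 9 had the strand of the host and 13 the opposite strand, and 13 had a higher TPM than the host. RPS2P5 lies antisense within TAOK3, a kinase gene at 35.8 TPM, and HMGN2P5 antisense within the tight junction gene TJP1 at 139 TPM. The counts ignored strand, so reads of a retained host intron and of the pseudogene cannot be told apart.

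Spread between the 3 libraries was tested for every gene with at least 10 reads in each, by a chi-square test that set the 3 counts against library sizes scaled by TMM, and p-values were adjusted by Benjamini-Hochberg over 21039 genes. It called 37 of the 77 (48.1%), and 46.1% of all genes tested. The test sets the libraries against counting noise alone, so its p-values cover counting error only and fall with depth. Each mate of a pair may have been counted, and with the statistic divided by 2 the test called 17 of the 77, and 17.6% of all genes. The median SD of log2 CPM was 0.121 in the members and 0.122 in all genes tested, which include many of low count. Over the 11220 genes with mean reads in the range of the members it was 0.0716, and 55.0% of those genes were called; within that range depth was not matched further. Of the 37, 15 were highest in replicate 1, 13 in replicate 2 and 9 in replicate 3. The lowest library was replicate 1 for 6, replicate 2 for 16 and replicate 3 for 15.

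RPS2P5 had the smallest adjusted chi-square p, 4.54e-38, and 3.11e-18 with the statistic divided by 2, with an SD of 0.115 on about 14240 reads a library. The largest SD, 0.382, belonged to ANKRD18EP with 380, 307 and 219 reads (adjusted chi-square p = 7.45e-08, or 0.00111 with the statistic divided by 2). EEF1A1P5 had 658, 393 and 594 reads (SD 0.350; adjusted chi-square p = 3.5e-11, or 3.32e-05). DUXAP10 had 901, 955 and 648 reads (SD 0.310; adjusted chi-square p = 3.69e-14, or 1.35e-06). Its lowest library was the third, as for ANKRD18EP, and that of EEF1A1P5 was the second.

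UQCRFS1P1, with 268, 210 and 316 reads and an SD of 0.271, passed the test (adjusted chi-square p = 0.000509) but not with the statistic divided by 2 (0.0531). The steadiest were ENSG00000233974, with 662, 619 and 634 reads and an SD of 0.00803, and CENPBD2P, with 2748, 2636 and 2727 reads and an SD of 0.0190. CENPBD2P has 8 exon blocks and overlaps another gene in 24.3% of its exon bases.

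**Figure D4:**
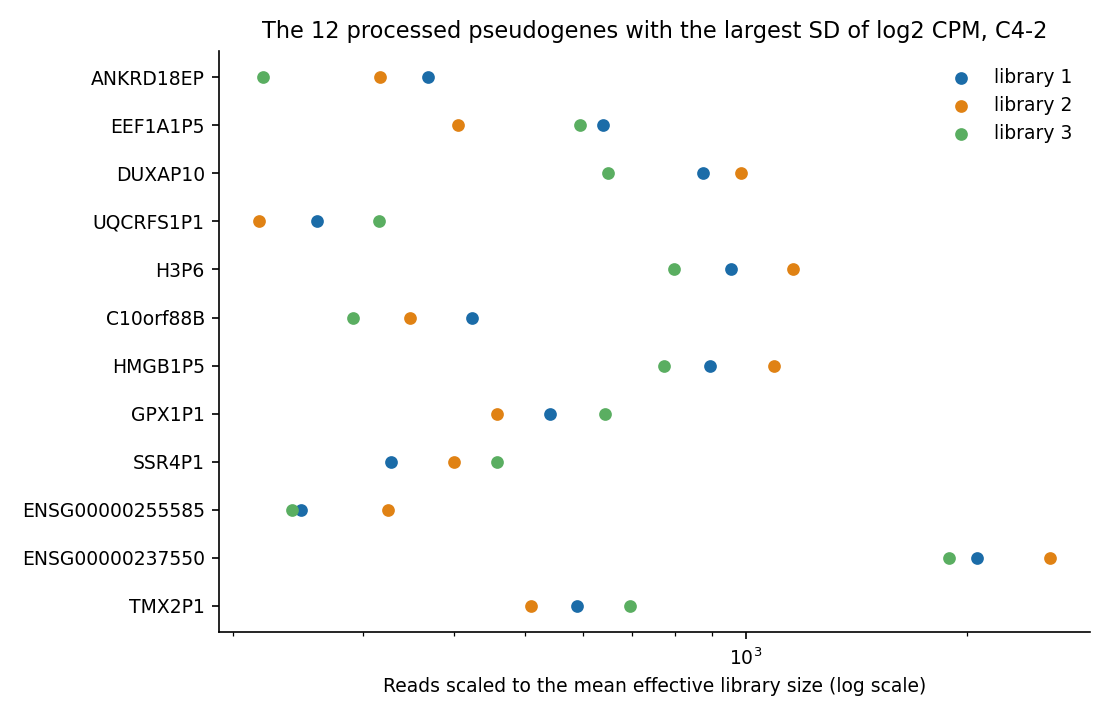
Reads scaled to the mean effective library size, on a log axis, for the 12 processed pseudogenes with the largest SD of log2 CPM, with a point per library. ANKRD18EP, with an SD of 0.382, is spread most, and the order of the libraries differs from gene to gene.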

How the data were processed

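Per the file headers, the values that the authors deposited are raw gene counts, made by featureCounts 1.6.3 from Ensembl release 90 exons and not normalised; the recorded options leave strand unused, drop reads that map to several places or touch exons of more than 1 gene, and count mates singly. Per the submitters' processing notes, STAR 2.7.0f, Subread 1.6.3 and DESeq2 1.26.0 were used on GRCh38. Per the labels' protocols, RNA was depleted of ribosomal RNA (770 ng input) and libraries were built with a directional kit. The gene length column, a deposited value of the same files, gave the exon length for TPM.

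Gene types and symbols came from GENCODE release 44, with 57532 of 58302 identifiers matched (98.7%). TPM, log2(TPM + 0.1) and per-library differences were computed from the counts. Members and gene lists were chosen with earlier results of these data known. Named genes were the 10 with the highest mean TPM, the 6 highest and 6 lowest differences to the parent, the 4 largest and 2 smallest SDs of log2 CPM (prior count 2), literature pseudogenes (HMGB1P5 and DUXAP10 passed the rule) and the parent with most members. An exact two-sided sign-flip test over 3 libraries cannot give a p below 0.25. Exons were aligned with BLAST 2.17.0 (word size 16, e-value 1e-10) to GENCODE coding transcripts. Windows of 75 bases counted as unique with no exact second copy on either strand of hg38 or in spliced coding transcripts of other loci. TMM factors came from edgeR 4.0.16 in R 4.3.3, and the remaining work used Python 3.11.15. A count of 0 allows up to 3 reads, 0.0631 CPM in the smallest library; intervals cover counting error only. On simulated counts of 21039 genes with counting noise only, changes were set in replicate 2 in 200 genes of at least 200 mean reads. The chi-square test recovered 86.5% of genes changed 1.25-fold and 100% of those changed 2-fold. Changes in genes of fewer reads, and spread beyond counting noise, were not simulated. Alternatives were other thresholds, pseudocounts, length scaling, windows, scalings and leaving out each library. Other genes named were singled out after their values were seen.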

Additional observations from a re-analysis of the deposited data

How the results depend on the processing

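No paired analysis was possible because all 3 libraries belong to 1 group. The number of processed pseudogenes was 167 at 100 reads and 26 at 500 reads per library, and 79 without any 1 library. The median log2 difference to the parent was -4.37 in CPM, -2.12 per unique window, -1.59 without genes that share exon bases, -3.69 at 100 reads and -2.97 over models of 1 exon block (chosen after seeing the data), and -2.73 to -2.67 with a library left out. The number above the parent was 6 in CPM, 3 of 20 without shared exon bases and 5 of 39 over models of 1 block, and 10 with any library left out. Of named pairs 15 of 21 were below the parent, and 5 of 7 without shared exon bases, where only 7 pairs could be kept; 15 stayed below with any library left out. NDUFV2P1 reversed to -0.47 in CPM and PPIAP22 to 1.21 per unique window. The other 19 of these 21 pairs kept their sign under every alternative that gave them a value. These pairs include the 6 highest and 6 lowest differences to the parent, so their kept signs say little about other pairs. Among all 52 pairs, 4 turned in CPM (also RPL17P7 to -1.76, CICP14 to -1.03 and C10orf88B to -0.44) and 2 per unique window (also GTF2IP4 to 1.10). The median unique share was 63.9% with 50-base windows, 86.8% with 100-base windows and 82.9% in the genome alone. With the chi-square statistic divided by 2, 3699 genes and 17 members varied, and with a library left out 5180 to 7098 genes and 21 to 28 members; fewer libraries give the test less to compare. The share of reads was 0.409% as a share of TPM, 0.153% at 100 reads, 0.0969% without RPS2P5 (chosen after seeing the data), and 0.124% to 0.128% with a library left out. The causes of these moves were not tested. Depth limits genes near 200 reads, and the read length needed to judge unique windows is not given in the sources used here.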
